A study of Mus musculus with 18 samples.

Results

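The kinases that phosphorylate SR proteins were followed through the reprogramming of mouse embryonic fibroblasts (MEFs) to pluripotency, at the level of gene expression and of alternative splicing. The 8 genes were listed by name: *Srpk1*, *Srpk2*, *Clk1*, *Clk2*, *Clk3*, *Clk4*, *Dyrk1a* and *Prpf4b*. All 8 were among the 9435 genes of the knockdown table and the 9472 genes of the overexpression table, and 438 of the 661941 events in the table of splicing levels belonged to them. Of these 438 events, 401 had usable coverage in all 18 libraries. The genes were selected in part on knockdown splicing values, the percent spliced in of *Srpk2* exons and *Clk* introns, so those values are given as a description and are not tested.

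SR proteins are splicing factors with a domain rich in arginine and serine dipeptides, and the phosphorylation of that domain controls where they are in the cell and how they act on splicing. SRPK kinases phosphorylate SR proteins in the cytoplasm and promote their import into the nucleus, whereas CLK kinases act on them within the nucleus and release them from storage in speckles. *CLK* transcripts are themselves known targets of this control: skipping of exon 4 gives a shortened protein without kinase activity, and transcripts that keep the introns around exon 4 stay in the nucleus as a reserve. DYRK1A phosphorylates several splicing factors, and PRPF4B (PRP4 kinase) acts within the spliceosome.

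Polyadenylated RNA was sequenced in 18 libraries, 2 in each of 9 groups, from primary MEFs of the genotype Collagen-OKSM, M2rtta+, in which doxycycline induces Oct4, Klf4, Sox2 and Myc. In the knockdown dataset, non-infected (NI) MEFs at day 0 stood beside cells taken at day 12 of doxycycline after lentiviral infection with a scrambled shRNA (shSCR), either of 2 shRNAs against the cleavage factor CPSF3 (shCPSF3#1, shCPSF3#2) or either of 2 against the RNA-binding protein hnRNP UL1 (shUL1#1, shUL1#2). In the overexpression dataset, NI MEFs at day 0 stood beside day 12 cells that had received a retrovirus, either Empty or encoding T7-tagged TIA1, an RNA-binding protein (T7-TIA1). The time field of the labels puts shUL1#2 at day 0 and the overexpression NI libraries at day 12, against the titles of these libraries, which were followed here. Infected cells were sorted for GFP at day 2 and then grown on irradiated feeder cells, so that time, doxycycline, virus, sorting and RNA from feeders cannot be told apart in the comparisons of day 12 with day 0. The labels do not say whether replicates were separate cultures, and p-values therefore measure the spread between these libraries only, which may be technical.

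Depth was even. The values of each library were whole multiples of a step and summed to between 98882289 and 109047542 steps, which is the number of reads if a step is worth 1 read. The targeted genes followed the labels. *Cpsf3* averaged 52.0 scaled CPM in the 4 shCPSF3 libraries and 102 in shSCR, *Hnrnpul1* 61.0 in the 4 shUL1 libraries and 171 in shSCR, and *Tia1* 541 in T7-TIA1 and 81.3 in Empty. All 9 fibroblast markers were listed in both tables, and their summed level was 14577 to 17818 scaled CPM in NI of the knockdown dataset, 6295 to 6359 in shSCR and 12660 to 28170 in the 8 knockdown libraries. In the overexpression dataset it was 16260 and 35977 in the 2 NI libraries, which thus stood far apart, 6284 to 6997 in Empty and 5228 to 5576 in T7-TIA1. None of 7 pluripotency and 3 endothelial markers was listed in either table. Of 6 epithelial markers, *Krt8* and *Krt18* were listed in the knockdown table only, with a sum of 16.0 to 20.4 in NI and 298 to 539 in shSCR, and of 4 blood markers, *Lyz2*, *Cd68* and *Csf1r*, with sums of 9.57 to 10.6 in NI, 171 to 300 in shSCR and up to 1814 in shCPSF3#1. In RNA from whole cultures, fewer cells of a type and less RNA per cell cannot be told apart, and the part of these cell mixtures in the results below was not tested.

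The *Clk* findings turn on exon 4, whose sequence is shown for the 4 paralogs in lower case for *Clk1*, and with capitals for the bases that a global alignment placed opposite an identical base of *Clk1* exon 4. All sequences are from the GENCODE M21 transcripts of mm10, written in the sense of the gene, from chr1:58420121-58420211 (minus strand), chr3:89169618-89169702 (plus), chr9:57758627-57758723 (minus) and chr11:51273078-51273168 (plus).
Clk1 exon 4: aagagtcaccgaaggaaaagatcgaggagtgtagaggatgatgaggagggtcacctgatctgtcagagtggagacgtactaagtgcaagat
Clk2 exon 4: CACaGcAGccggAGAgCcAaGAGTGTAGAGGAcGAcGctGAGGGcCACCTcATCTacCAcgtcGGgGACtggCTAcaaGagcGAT
Clk3 exon 4: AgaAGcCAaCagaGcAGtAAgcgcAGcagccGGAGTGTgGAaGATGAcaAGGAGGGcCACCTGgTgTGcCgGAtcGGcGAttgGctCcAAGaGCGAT
Clk4 exon 4: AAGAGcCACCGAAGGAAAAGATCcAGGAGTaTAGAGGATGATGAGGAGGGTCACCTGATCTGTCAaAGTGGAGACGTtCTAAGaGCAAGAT

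All of these bases are coding. The 91 bases of *Clk4* exon 4 matched *Clk1* at 85 positions (93.4%). The 85 bases of *Clk2* exon 4 did so at 54 (59.3%) and the 97 bases of *Clk3* exon 4 at 60 (61.9%). Percentages are of the longer exon of each pair, which for *Clk2* is the *Clk1* exon of 91 bases. Each length leaves a remainder of 1 when divided by 3, so that skipping shifts the reading frame in all 4 genes. How reads that match both *Clk1* and *Clk4* were assigned was not tested, and the values of this pair may share reads.

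The other sequences shown carry events of *Srpk2* and *Dyrk1a*. The first gives the coding bases of the *Srpk2* exon that opens the reading frame in 3 protein-coding transcripts that include it as an internal exon, at chr5:23616327-23616364 (minus strand), with the start codon in capitals. The second gives the *Dyrk1a* bases between alternative 3′ splice sites of exon 4, at chr16:94663742-94663768 (plus).
Srpk2 start-codon exon: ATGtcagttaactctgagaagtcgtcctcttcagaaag
Dyrk1a exon 4 extension: gtgatgcctgacattgtcatgttacag

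Gene expression was compared first. Between NI at day 0 and shSCR at day 12, *Clk1*, *Clk2*, *Clk4* and *Srpk2* rose, and the other 4 kinases did not pass the test. *Clk1*, the kinase best known for nuclear phosphorylation of SR proteins, stood at 58.2 and 57.2 scaled CPM in NI and at 166 and 147 in shSCR. The groups lay far apart, and the rise was 2.71-fold, a log2 difference of 1.42 with SE 0.16 and adjusted p = 0.000354 (limma on log2(scaled CPM + 1), Benjamini-Hochberg over all genes). *Clk4* was at 36.8 and 34.0 in NI and 56.4 and 49.7 in shSCR, 1.5-fold higher (log2 difference 0.57, SE 0.12, limma adjusted p = 0.00686). *Clk2* was at 50.2 and 46.8 in NI and 69.6 and 76.2 in shSCR, also 1.5-fold higher (0.58, SE 0.15, limma adjusted p = 0.0164). *Srpk2*, which primes SR proteins for import, was at 77.3 and 74.3 in NI and 99.5 and 104 in shSCR, 1.34-fold higher (0.42, SE 0.11, limma adjusted p = 0.0182). The libraries of these 4 genes did not overlap between the groups. The 4 calls of 8 stood beside 44.5% of all genes called, 22.5% higher and 22.0% lower, so the share of kinases called was close to that of genes at large. With libraries rescaled to an equal sum, the median of all genes moved up by 0.13 on the log2 scale in this comparison and the same 4 genes were called, while the differences of *Srpk1* and *Dyrk1a* turned to 0.11 and 0.01. The splicing of *Srpk2* and the *Clk* genes in these libraries was known when they were listed, so these p-values are no independent support.

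**Figure D1:**
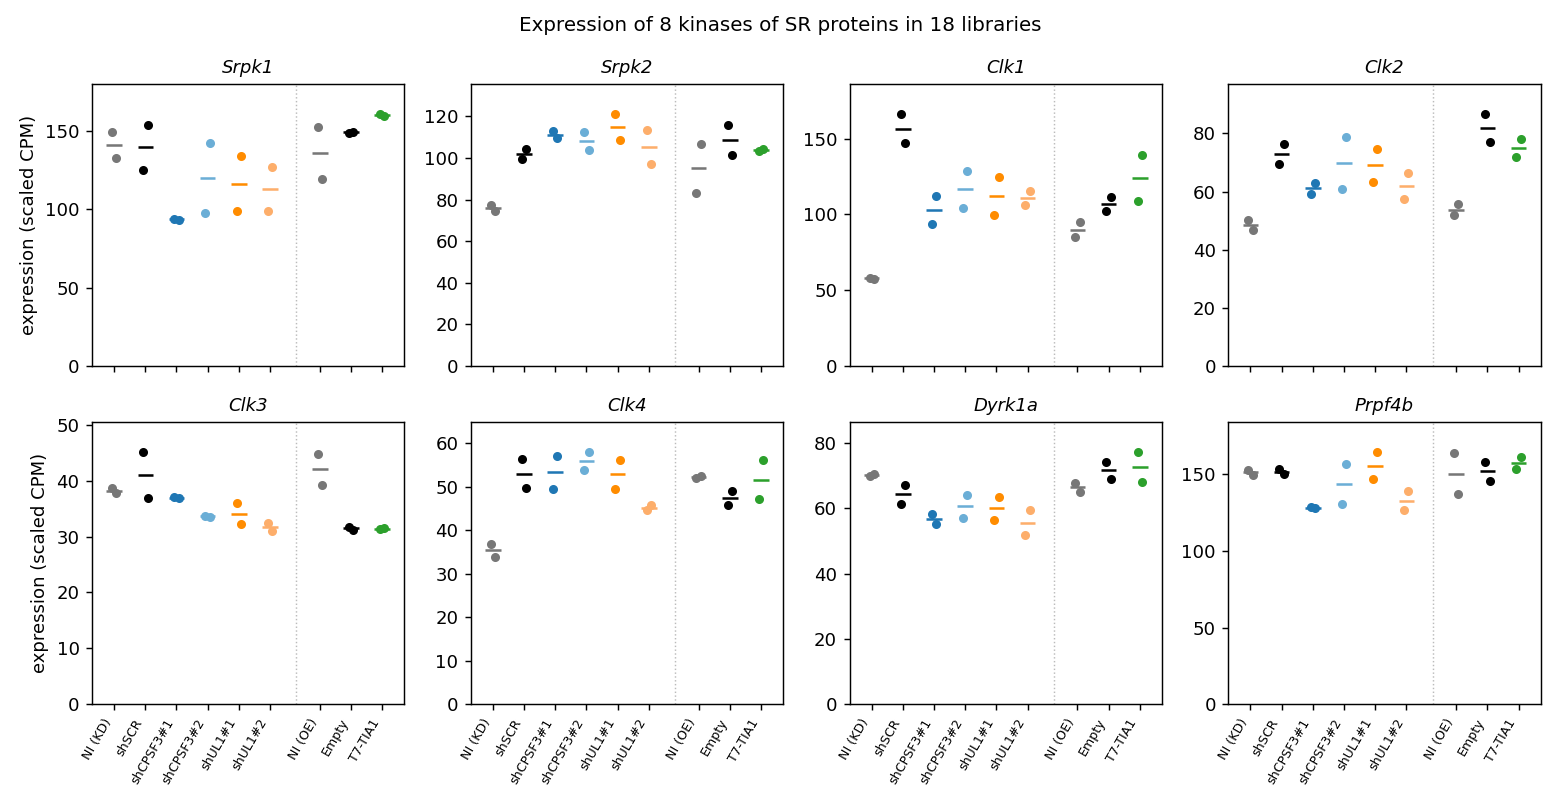
Scaled CPM (y axis of each panel, from 0) of the 8 kinases in the 9 groups (x axis), with a dotted line between the knockdown (KD) and overexpression (OE) datasets, which were normalised separately. Points are single libraries and bars are means of 2 libraries. *Clk1* was lowest in NI of the knockdown dataset (58.2 and 57.2) and highest in shSCR (166 and 147), while *Prpf4b* was at 153 and 150 in both of these groups.

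The remaining kinases were at like levels at both times. *Prpf4b* was at 153 and 150 scaled CPM in NI and at 153 and 150 in shSCR. *Srpk1* was at 149 and 133 in NI and 125 and 154 in shSCR, with overlapping groups and a log2 difference of −0.02 (SE 0.23). *Clk3* (38.6 and 37.9 against 45.2 and 36.9) also overlapped, with a log2 difference of 0.09 (SE 0.12). *Dyrk1a* did not overlap (70.0 and 70.5 against 61.3 and 67.4) but differed by −0.13 (SE 0.12, limma adjusted p = 0.422). The call of *Clk1* held when any library was left out. That of *Clk4* was lost without NI replicate 2 (limma adjusted p = 0.0514), that of *Clk2* without NI replicate 1, NI replicate 2 or shSCR replicate 2 (0.0564, 0.0910 and 0.0787) and that of *Srpk2* without the same libraries in turn (0.0685, 0.0976 and 0.0761).

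Levels per kilobase of exon were ordered differently at day 0 and day 12. Length was the union of exons over all annotated transcripts of a gene, some of them with retained introns. The order between genes therefore depends on the annotation. In NI of the knockdown dataset, *Prpf4b* led with 18 scaled CPM per kb, followed by *Srpk1* (11.4), *Clk2* (9.16), *Dyrk1a* (8.51), *Clk1* (7.10), *Clk4* (6.10), *Srpk2* (5.45) and *Clk3* (4.53). In shSCR, *Clk1* reached 19.2 per kb beside *Prpf4b* at 18, and *Clk3* was still lowest with 4.86. Across the 6 groups of the knockdown dataset, the *Clk1* libraries of shSCR lay above those of all knockdown groups, and those of NI below them, while the 4 knockdown groups overlapped their neighbours in the order. For *Srpk2*, the 5 day 12 groups overlapped their neighbours and only NI stood apart below.

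Knockdown of CPSF3 or hnRNP UL1 was then compared with shSCR to see which kinases differed in expression at day 12. The comparisons share the shSCR libraries and are given side by side. *Clk1* was at 93.7 and 112 scaled CPM in shCPSF3#1, 104 and 128 in shCPSF3#2, 99.5 and 125 in shUL1#1, and 106 and 116 in shUL1#2. All 8 libraries lay below both shSCR libraries and above both NI libraries. With shCPSF3, *Clk1* fell to 0.701 of shSCR (log2 difference −0.52, SE 0.14, limma adjusted p = 0.0311), the only call among 8 kinases, beside 26.1% of all genes called and 9.35% called lower. With shUL1 it was at 0.712 of shSCR (−0.49, SE 0.14), but limma, fitted without a replicate block, gave an adjusted p of 0.0613, and none of the 8 kinases was called in that fit, beside 10.5% of all genes. At an unadjusted limma p under 0.05, shUL1 had 2 of 8, *Clk1* and *Clk3*, beside 28.8% of all genes. Against an all-gene background of 0.0424% called, the difference between the knockdowns was called for none of the 8 kinases by limma, which gave adjusted p between 0.531 and 0.994 and no unadjusted p under 0.05, beside 12.8% of all genes. The shCPSF3 call of *Clk1* was lost when only the compared groups were fitted (limma adjusted p = 0.116) and without shSCR replicate 1 (0.126), shSCR replicate 2 (0.0969), shCPSF3#1 replicate 1 (0.0735) or shCPSF3#2 replicate 1 (0.0780).

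The other kinases did not pass the test upon knockdown in the fit without a replicate block. With a block, limma called *Clk1* and *Clk3* in shUL1, although the labels do not pair the libraries. *Clk3* had the next lowest ratio in shUL1, 36.1 and 32.2 scaled CPM in shUL1#1 and 32.5 and 31.0 in shUL1#2 against 45.2 and 36.9 in shSCR, without overlap (log2 difference −0.30, SE 0.10, limma adjusted p = 0.102). *Srpk1* was at 93.9 and 93.5 in shCPSF3#1 and 97.6 and 142 in shCPSF3#2, which overlapped shSCR (−0.40, SE 0.20, limma adjusted p = 0.159). *Srpk2*, *Clk2*, *Clk4*, *Dyrk1a* and *Prpf4b* had log2 differences between −0.16 and 0.11 in both knockdowns. Between the shRNAs of a factor no kinase differed by the test, with limma adjusted p from 0.454 to 0.839 for CPSF3 and 0.99993 for hnRNP UL1, where 0.0212% and 0.00% of all genes were called. No unadjusted p was under 0.05 in either.

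**Figure D2:**
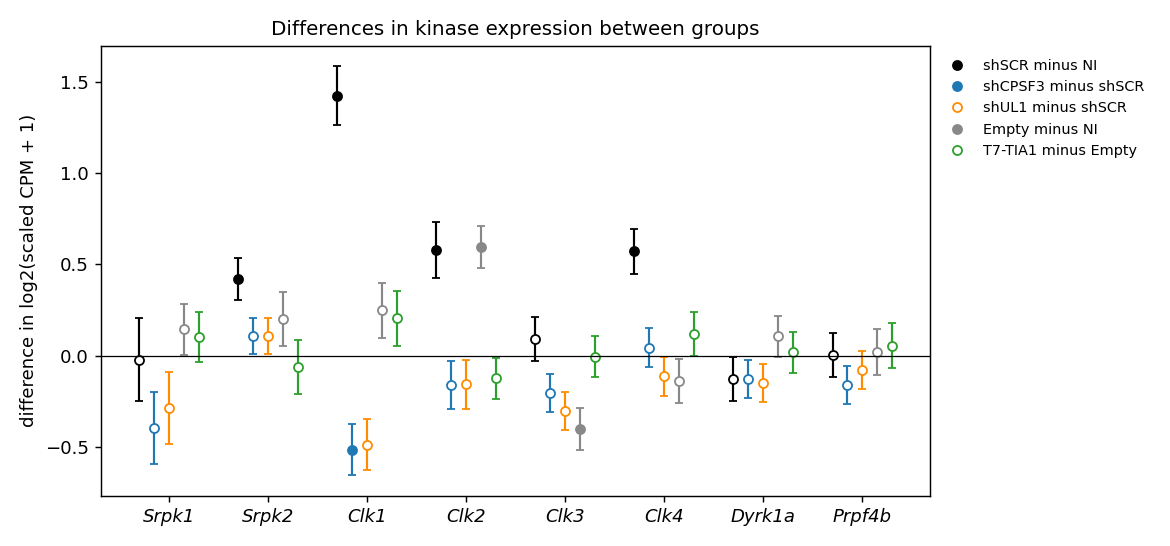
Differences of log2(scaled CPM + 1) between groups (y axis) for each kinase (x axis) from limma, with SE as error bars, in 5 comparisons shown by colour. Filled points have an adjusted p under 0.05: *Clk1*, *Clk2*, *Clk4* and *Srpk2* in shSCR minus NI, *Clk1* in shCPSF3 minus shSCR, and *Clk2* and *Clk3* in Empty minus NI.

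With the overexpression controls, *Clk2* rose and *Clk3* fell between NI and Empty. *Clk2* was at 51.9 and 55.7 scaled CPM in NI and 86.7 and 76.9 in Empty, 1.52-fold higher (log2 difference 0.59, SE 0.11, limma adjusted p = 0.0101). *Clk3* was at 44.9 and 39.2 in NI and 31.8 and 31.2 in Empty, 0.749 of NI (−0.40, SE 0.11, limma adjusted p = 0.0328). These 2 calls of 8 stood beside 46.5% of all genes, 22.8% higher and 23.6% lower. Rescaling to an equal sum moved the median of all genes up by 0.18 here and raised *Clk2* to 0.78. *Clk1* was at 84.8 and 95.1 in NI and 102 and 112 in Empty, without overlap but also without a call (0.25, SE 0.15, limma adjusted p = 0.223). The *Clk2* call was lost without Empty replicate 1 (limma adjusted p = 0.0860). The *Clk3* call was lost without either Empty library (0.147), with libraries rescaled to an equal sum (0.143) and with only the compared groups (0.0959). *Srpk1* was called without NI replicate 1 (log2 difference 0.32, limma adjusted p = 0.0163) and *Srpk2* without NI replicate 2 (0.38, limma adjusted p = 0.0217).

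No kinase passed the test between T7-TIA1 and Empty, where limma called 0.00% of all genes. The test did not call *Tia1* itself either (log2 difference 2.71, limma adjusted p = 0.222), so the lack of calls says little about the kinases. Adjusted p was 0.999 for all 8 kinases, and none had an unadjusted p under 0.05, beside 4.15% of all genes. *Clk1* was at 109 and 139 scaled CPM in T7-TIA1, overlapping Empty, with a log2 difference of 0.20 (SE 0.15). *Srpk1* was at 161 and 159 in T7-TIA1 and 149 and 150 in Empty, a small difference without overlap (0.10, SE 0.14). The other kinases had log2 differences between −0.13 and 0.12.

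Of the proteins that these kinases phosphorylate, 16 of 18 listed substrates were in the knockdown table. Between NI and shSCR, 3 of the 16 rose (*Prpf6*, *Tra2a* and *Srsf5*) and 2 fell (*Srsf9* and *Prpf31*), with a median log2 difference of −0.26 beside 0.00 over all genes. These 5 calls of 16 stood beside 44.5% of all genes called. *Tra2a*, a splicing activator of the SR family, rose from 186 to 276 scaled CPM (log2 difference 0.56, limma adjusted p = 0.0126), and it fell to 191 in shCPSF3 (−0.53, 0.0166) and to 194 in shUL1 (−0.51, 0.0370). *Srsf5* rose from 419 to 676 (0.69, limma adjusted p = 0.00149) and fell to 542 in shCPSF3 (−0.32, 0.0395). Between NI and Empty, 4 of 16 substrates rose (*Prpf6*, *Tra2a*, *Tra2b* and *Srsf7*) and none fell, beside 22.8% of all genes called higher and 23.6% called lower, and none passed the test with T7-TIA1.

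Related kinases and the enzymes that oppose or assist them are given by their calls, to be read beside the shares of all genes called (44.5% in shSCR, 26.1% in shCPSF3, 10.5% in shUL1 and 46.5% in Empty). Of 13 other kinases in the knockdown table, *Dyrk3*, *Hipk1* and *Dyrk1b* rose and *Akt1* fell in shSCR, *Akt1* and *Akt2* rose in shCPSF3, and none was called in shUL1. In Empty, *Hipk1* rose and *Hipk3*, *Dyrk2* and *Akt1* fell among 11. *Akt1* fell by 1.37 in shSCR and by 1.36 in Empty on the log2 scale. Of 14 phosphatases, carriers and chaperones, 5 fell in shSCR (*Ppm1g*, *Ppp2cb*, *Ppp2ca*, *Ahsa1* and *Ppp1ca*), none was called in either knockdown, and 3 rose in Empty (*Dnajc8*, *Ppp1cc* and *Hsp90aa1*). None of these 11 and 14 genes was called with T7-TIA1.

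Splicing of the kinases was compared next, as percent spliced in (PSI), which for an exon is its share of inclusion, for an intron its share of retention and for a splice site its share of use. An event was counted as differing when mean PSI differed by at least 10 and the libraries of the groups were at least 5 apart. For a knockdown, each of the 2 shRNAs had to meet this on its own. Between NI and shSCR, 15 of 401 events met these criteria, 6 with higher and 9 with lower PSI in shSCR, which is 3.74% of the kinase events beside 1.22% of all events, 0.750% higher and 0.470% lower. In shCPSF3, 10 of 406 did so (2.46% beside 0.371%), and in shUL1 the same 10 events (2.49% of 401 beside 0.315%). Because knockdown splicing was in view when the genes were listed, nothing is read from these shares. Near the threshold, *Clk2* intron 12 was just inside with a ∆PSI of −10.1 between NI and shSCR, and *Clk3* exon 4 just outside with −9.56.

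The start-codon exon of *Srpk2* was included less in shSCR than in NI or in any knockdown group. Its PSI was 79.9 and 79.0 in NI, 38.0 and 35.1 in shSCR, 81.6 and 78.6 in shCPSF3#1, 77.4 and 63.9 in shCPSF3#2, 73.5 and 68.4 in shUL1#1, and 82.5 and 73.7 in shUL1#2, at 162 to 267 reads per library. Within the knockdown dataset, inclusion was low only in the shSCR libraries, the lowest of the 8 knockdown libraries being at 63.9. The ∆PSI was −42.9 between NI and shSCR, 38.8 with shCPSF3 and 38.0 with shUL1. In the overexpression dataset the exon was at 73.9 and 70.4 in NI, 46.4 and 63.4 in Empty and 56.2 and 47.7 in T7-TIA1. The ∆PSI of −17.2 between NI and Empty met the criteria, but limma on inclusion and exclusion reads gave an adjusted p of 0.273, and T7-TIA1 and Empty overlapped. Without Empty replicate 1 this ∆PSI was −8.76, under the minimum. Transcripts that skip these 64 nt lack the start codon printed above, and whether they open a reading frame elsewhere was not tested. Total *Srpk2* expression did not follow inclusion, being higher in shSCR than in NI and differing from shSCR by 0.11 on the log2 scale in either knockdown.

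Other *Srpk2* events also met the criteria between NI and shSCR. An intron interval of 110454 nt that contains the start-codon exon was at 24.6 and 26.3 PSI in NI and 1.90 and 2.22 in shSCR, at 38 to 134 reads, and its exon-intron junctions were unevenly covered in 8 libraries. A donor site 123 nt downstream of the usual one went from a mean PSI of 1.70 to 12.6 between NI and shSCR at 22 to 67 reads, and an acceptor of a further exon from 83.7 to 94.2 at 255 to 432 reads. Without NI replicate 1 these differences were 9.17 and 6.23, under the minimum. Another *Srpk2* exon had a ∆PSI of −14.5 with shCPSF3, the most negative among the events that did not meet the criteria. None of the events of this paragraph met the criteria in a knockdown.

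Exon 4 of *Clk1* and *Clk4* met the criteria in both knockdowns and in Empty, and exon 4 of *Clk2* and *Clk3* did not meet the criteria in any comparison. *Clk1* exon 4 was at 46.5 and 64.5 PSI in NI, 24.4 and 29.0 in shSCR, 53.4 and 55.4 in shCPSF3#1, 42.7 and 49.3 in shCPSF3#2, 38.3 and 48.4 in shUL1#1, and 52.9 and 49.7 in shUL1#2, at 340 to 1405 reads. The shSCR libraries were the lowest of the 12, with a ∆PSI of −28.8 from NI, 23.5 with shCPSF3 and 20.6 with shUL1. *Clk4* exon 4, counted as an 88-nt event that starts 3 nt inside the 91-nt exon printed above, was at 35.8 and 44.1 in NI, 31.3 and 30.1 in shSCR, 48.9 and 54.1 in shCPSF3#1, 44.2 and 47.1 in shCPSF3#2, 42.3 and 39.7 in shUL1#1, and 46.4 and 41.9 in shUL1#2. It was higher by 17.9 with shCPSF3 and by 11.9 with shUL1, and differed by −9.25 between NI and shSCR, below the minimum. The latter difference was −13.4 without NI replicate 1 and −5.09 without NI replicate 2.

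Both exons were also lower in Empty than in NI of the overexpression dataset. *Clk1* exon 4 was at 77.1 and 51.5 in NI, 29.8 and 41.9 in Empty and 39.5 and 45.0 in T7-TIA1, a ∆PSI of −28.4 between NI and Empty. *Clk4* exon 4 was at 60.5 and 40.0 in NI, 18.8 and 28.8 in Empty and 31.4 and 30.7 in T7-TIA1 (∆PSI −26.5). In both exons, NI replicate 1 was far above NI replicate 2, and without it the ∆PSI was −15.6 for *Clk1* and −16.2 for *Clk4*. The read-level limma test gave adjusted p of 0.272 for *Clk1* and 0.222 for *Clk4*. T7-TIA1 differed from Empty by 6.41 and 7.27, which did not meet the criteria. Mean PSI of *Clk2* exon 4 stayed between 67.8 and 73.4 over all 9 groups and that of *Clk3* exon 4 between 77.9 and 91.1.

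**Figure D3:**
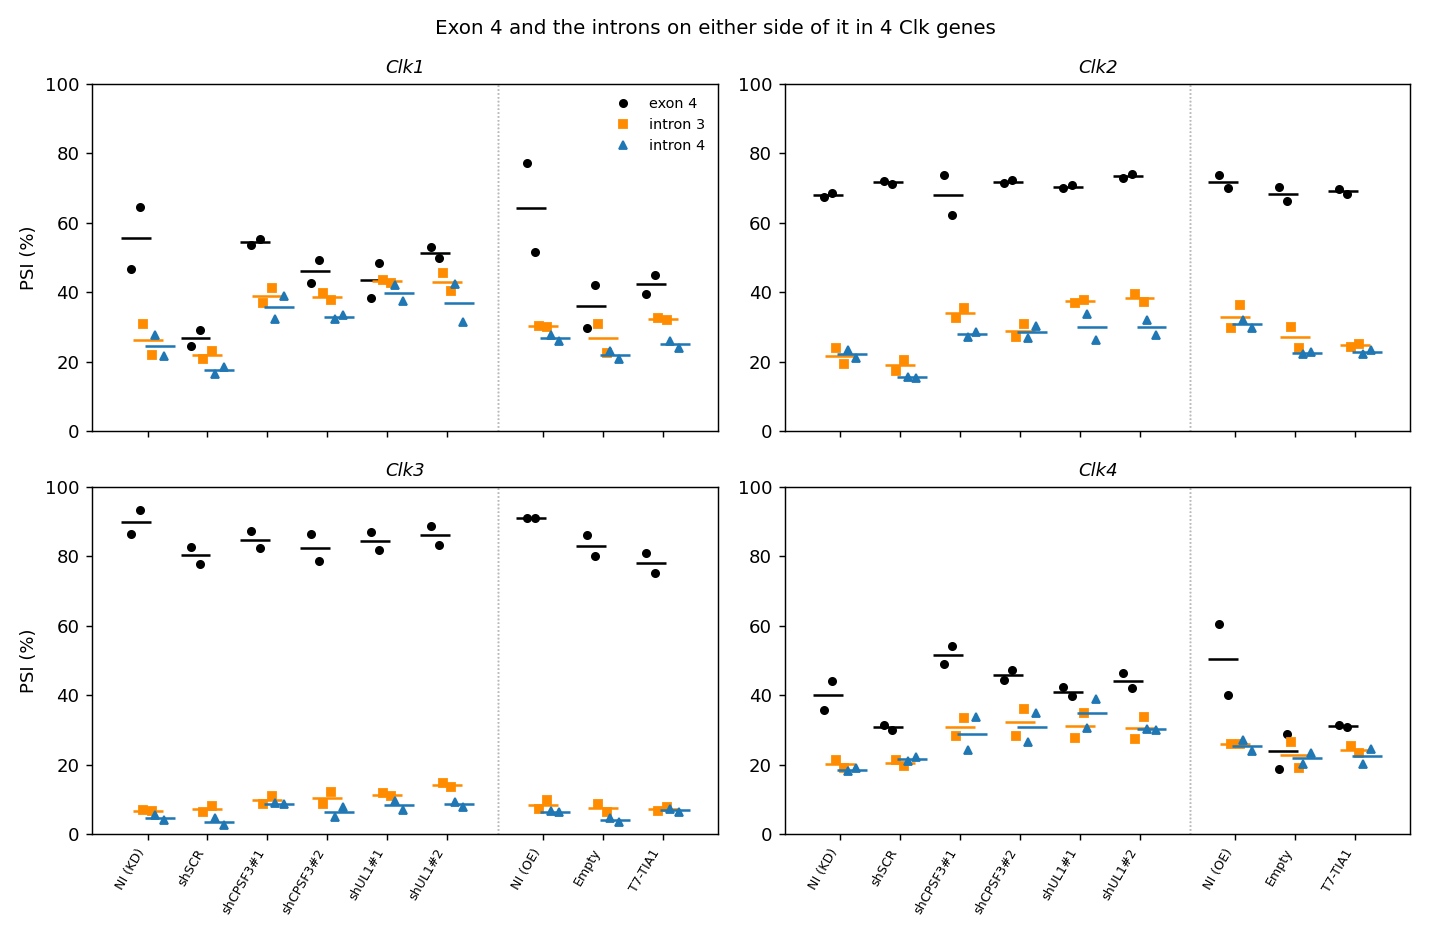
PSI in percent (y axis) of exon 4 and of introns 3 and 4 on either side of it in *Clk1*, *Clk2*, *Clk3* and *Clk4*, in 9 groups (x axis) with a dotted line between the knockdown (KD) and overexpression (OE) datasets. Points are libraries and bars are means of 2 libraries. *Clk1* exon 4 was lowest in shSCR (24.4 and 29.0), and introns 3 and 4 of *Clk1* were between 31.3 and 45.5 in the 8 knockdown libraries and between 16.4 and 23.1 in shSCR.

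Introns on either side of exon 4 met the criteria upon knockdown in 3 of the 4 *Clk* genes, with more retention in each case. *Clk1* intron 4 was at 27.6 and 21.5 PSI in NI and 16.4 and 18.5 in shSCR. It was at 32.4 and 38.9 in shCPSF3#1, 32.3 and 33.3 in shCPSF3#2, 42.1 and 37.3 in shUL1#1, and 42.4 and 31.3 in shUL1#2. All 8 knockdown libraries thus lay above shSCR and NI, with a ∆PSI of 16.7 for shCPSF3 and 20.8 for shUL1. Mean PSI of *Clk1* intron 3 went from 21.9 ± 1.72 (SD, n = 2) in shSCR to 39.0 and 38.7 in the shCPSF3 groups and 43.0 and 42.9 in the shUL1 groups. In *Clk2*, mean PSI of intron 3 was 18.9 in shSCR, 34.0 and 28.9 in shCPSF3 and 37.3 and 38.2 in shUL1, and that of intron 4 was 15.4 in shSCR, 27.8 and 28.5 in shCPSF3 and 30.0 and 29.9 in shUL1. *Clk4* intron 3 was at 20.4 in shSCR and between 30.5 and 32.2 in the knockdown groups, and its ∆PSI of 11 and 10.5 dropped to as little as 9.11 without shCPSF3#2 replicate 2 and 8.64 without shUL1#1 replicate 2. These 5 introns were the only ones that met the criteria among 100 covered introns of the 8 kinases in either knockdown, all of them higher, while 0.109% of all introns were called higher in each knockdown.

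Beside exon 4, *Clk4* intron 4 and *Clk3* intron 3 did not meet the criteria but had higher means upon knockdown. *Clk4* intron 4 had a mean of 21.5 in shSCR and of 28.9 to 34.7 in the knockdown groups, with ∆PSI of 8.31 for shCPSF3 and 10.9 for shUL1, where the mean of shUL1#2 alone was less than 10 above shSCR. *Clk3* intron 3 was retained far less, with means of 7.17 in shSCR and 9.79 to 14.0 upon knockdown, and did not meet the criteria. In the overexpression dataset, none of 100 introns met them in either comparison, beside 0.700% of all introns between NI and Empty and 0.241% with T7-TIA1. *Clk1* intron 4 was at 27.7 and 26.0 in NI, 23.2 and 20.7 in Empty and 26.0 and 23.8 in T7-TIA1. *Clk2* introns 3 and 4 had means of 32.9 and 30.7 in NI of this dataset, within or above the range of the knockdown groups, against 21.5 and 22.2 in NI of the knockdown dataset. *Clk4* intron 3 had means of 25.8 and 20.1 in these NI groups. Reads over the 2 junctions of an intron were uneven (deposited binomial p under 0.05) in 17 libraries for *Clk1* intron 3 and 15 for *Clk2* intron 3, but in none for *Clk1* intron 4, *Clk2* intron 4 and *Clk4* intron 3. Of all 48 *Clk* introns, 34 had a mean PSI below 10 in every group. Markers of cell types moved with the knockdowns as well. The summed fibroblast markers were higher in every knockdown library than in shSCR. The sum of *Krt8* and *Krt18* was 31.7 to 206 scaled CPM in shCPSF3 and 51.2 to 221 in shUL1, below shSCR, and both genes fell by the limma test in shCPSF3 and neither was called in shUL1. The sum of *Lyz2*, *Cd68* and *Csf1r* was 429 to 1814 in shCPSF3, where all 3 rose, and 259 to 1000 in shUL1, where none was called. The part of these cell mixtures in the retention was not tested.

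A second region of *Clk1* differed between day 0 and day 12 in the knockdown dataset. Intron 6, of 87 nt, was at 31.5 and 27.4 PSI in NI and 11.1 and 8.84 in shSCR. Intron 7, of 2328 nt, was at 48.8 and 36.8 in NI and 18.4 and 14.5 in shSCR. Reads over the junctions of intron 7 were uneven in 8 libraries, both NI libraries of this dataset among them. Exon 7, which lies between these introns, was at 73.8 and 87.1 in NI and 95.0 and 94.7 in shSCR, a ∆PSI of 14.4. In the knockdown libraries it stayed between 89.8 and 95.0. The direction was opposite in the overexpression dataset, with 93.9 and 91.2 in NI and 66.3 and 85.0 in Empty (∆PSI −16.9), and exon 7 was at 63.2 and 80.4 in T7-TIA1. The NI libraries of the datasets, both of non-infected MEFs, thus differed from each other at this exon. They also differed at both introns, whose fall was not seen in the overexpression dataset. There, intron 6 was at 8.44 and 11.7 in NI and 22.8 and 11.5 in Empty. Intron 7 was at 22.8 and 19.1 in NI and 35.5 and 19.0 in Empty. The ∆PSI of exon 7 fell under the minimum without NI replicate 1 of the knockdown dataset (7.70) and without Empty replicate 1 (−7.58).

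Events of *Dyrk1a* and *Prpf4b*, which the choice of genes had not used, were tested on their reads. For *Dyrk1a* exon 4, use of the upstream 3′ splice site adds the 27 nt printed above and keeps the reading frame. Its PSI was 26.4 and 34.6 in NI, 55.8 and 54.1 in shSCR, 33.6 and 45.1 in shCPSF3#1, 35.5 and 41.6 in shCPSF3#2, 38.7 and 43.4 in shUL1#1, and 29.1 and 47.4 in shUL1#2, at 119 to 208 reads. The shSCR libraries were highest, and the criteria were met in all 3 comparisons (∆PSI 24.4, −16.0 and −15.3). Limma on the reads did not call it, however, with adjusted p of 0.0683 between NI and shSCR, 0.209 with shCPSF3 and 0.297 with shUL1. It was at 34.4 and 35.6 in NI of the overexpression dataset, 32.3 and 50.9 in Empty and 39.3 and 52.4 in T7-TIA1, and the groups overlapped.

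A 104-nt exon of *Prpf4b* was nearly absent at day 0. It shares its 3′ end with a 141-nt exon of an annotated transcript subject to nonsense-mediated decay (NMD) but starts at another 3′ splice site. Its PSI was 1.58 and 1.36 in NI and 21.9 and 11.6 in shSCR, and the log2 ratio of inclusion to exclusion reads rose by 3.55 (SE 0.56, limma adjusted p = 0.0202). In the knockdown libraries it was between 3.38 and 9.04, below both shSCR libraries, with adjusted p of 0.128 for shCPSF3 and 0.112 for shUL1 by limma. It was at 0.98 and 3.44 in NI of the overexpression dataset, 6.55 and 5.38 in Empty and 10.3 and 9.32 in T7-TIA1, in this order of groups without overlap, but neither step met the criteria. Without shSCR replicate 1 the ∆PSI between NI and shSCR was 10.1 in place of 15.3. Total *Prpf4b* expression was at 153 and 150 scaled CPM in both NI and shSCR.

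Over the 143 tested events of *Srpk1*, *Dyrk1a* and *Prpf4b*, limma called 7 between NI and shSCR, 5 higher and 2 lower, beside 4.53% of all events, 2.73% higher and 1.80% lower. Of these, 6 were in *Prpf4b*: the 104-nt exon, the intron that contains it (mean PSI 5.62 in NI and 13.7 in shSCR), a further exon (1.90 and 5.71), an intron (0.220 and 2.56) and the complementary pair of an acceptor of low use (0.385 and 7.54). The other call was a *Srpk1* acceptor that went from 29.0 to 6.36 at 32 to 86 reads. All but the 104-nt exon and this acceptor had a PSI difference below 10. In the knockdowns limma called none of the 143 events, beside 0.612% and 0.146% of all events called. At an unadjusted p under 0.05 there were 15 for shCPSF3 and 16 for shUL1, which is 10.5% and 11.2% of the 143 events beside 17.9% and 13.6% of all events. The 7 calls fell to 0 without either NI library, to 3 without shSCR replicate 1 and to 4 without shSCR replicate 2.

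**Figure D4:**
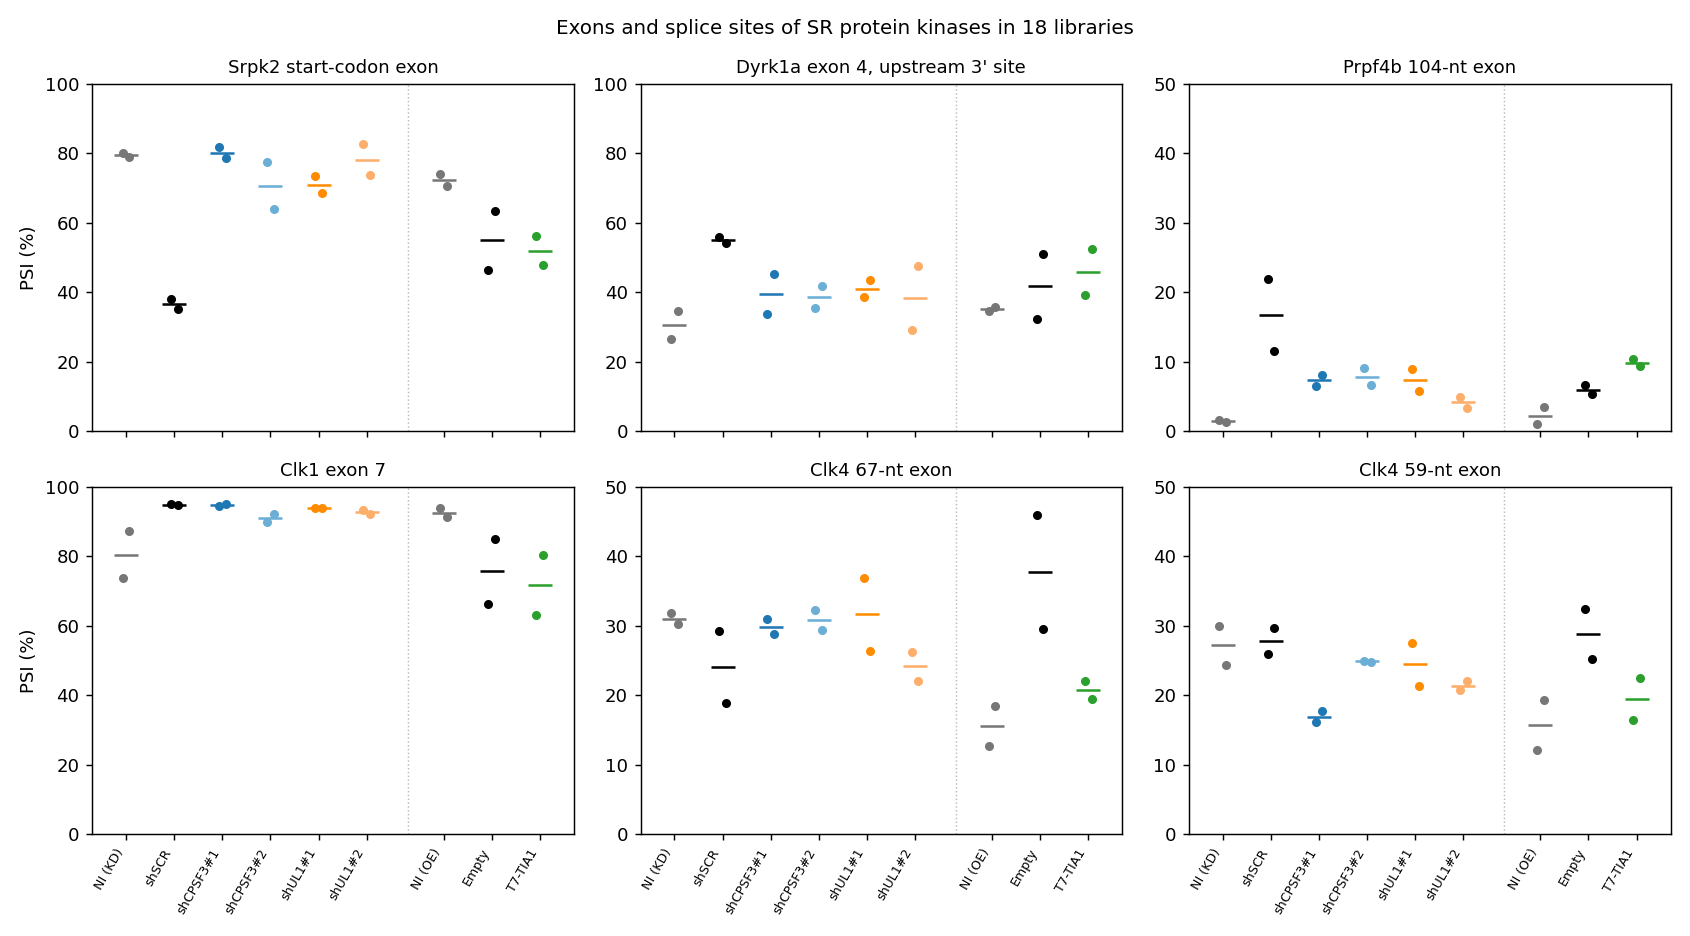
PSI in percent (y axes, to 50 in the 3 panels of rarer exons) of 6 exons or splice sites of the kinases in 9 groups (x axis), with a dotted line between the knockdown (KD) and overexpression (OE) datasets. Points are libraries and bars are means of 2 libraries. The *Srpk2* start-codon exon was lowest in shSCR (38.0 and 35.1), and the 104-nt *Prpf4b* exon was highest there (21.9 and 11.6).

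Between NI and Empty, 6 of 401 kinase events met the criteria, 2 higher and 4 lower, which is 1.5% beside 0.679% of all events, 0.345% higher and 0.334% lower. All 6 were exons: the *Srpk2* start-codon exon, exons 4 and 7 of *Clk1*, and 3 exons of *Clk4*. A 67-nt *Clk4* exon was at 12.6 and 18.4 PSI in NI and 45.9 and 29.6 in Empty, and a 59-nt exon annotated in NMD transcripts of *Clk4* at 12.1 and 19.2 in NI and 32.4 and 25.2 in Empty. Both were higher in Empty, opposite to *Clk4* exon 4. Without Empty replicate 1 the ∆PSI was 14.0 in place of 22.2 for the 67-nt exon and 9.57 in place of 13.2 for the 59-nt exon. Limma on the reads called none of the 401 events in this comparison, with a lowest adjusted p of 0.126, beside 0.000525% of all events called. At an unadjusted p under 0.05 there were 56, which is 14.0% beside 17.9% of all events. Of the 15 events that met the criteria between NI and shSCR and these 6, 3 were shared, which is 20% of the former and 50% of the latter. The 3 were the *Srpk2* start-codon exon and exons 4 and 7 of *Clk1*. Sharing was counted without regard to direction, and *Clk1* exon 7 moved in opposite directions (∆PSI 14.4 between NI and shSCR, −16.9 between NI and Empty). Without Empty replicate 2 the criteria gave 12 events.

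With T7-TIA1, 1 of 406 events met the criteria, beside 0.342% of all events. This was the 67-nt *Clk4* exon, at 22.0 and 19.4 PSI in T7-TIA1 against 45.9 and 29.6 in Empty (∆PSI −17.0), and without Empty replicate 1 the ∆PSI was −8.86, under the minimum. The read-level limma test gave it an adjusted p of 0.819. The test called none of the 401 events and 0.00% of all events. At an unadjusted p under 0.05 there were 32 kinase events, which is 7.98% beside 5.75% of all events. The number of kinase events that met the ∆PSI criteria, 1 with all libraries, was 10 without Empty replicate 2, 2 without Empty replicate 1 and 2 without T7-TIA1 replicate 2.

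The expression of the kinases across libraries was compared with that of every other gene, as a description only, because libraries of a group share their condition. Over the 12 knockdown libraries, *Clk1*, *Clk2* and *Clk4* varied together, with Pearson's r of 0.899 for *Clk1* and *Clk2*, 0.847 for *Clk1* and *Clk4* and 0.831 for *Clk2* and *Clk4*, and *Srpk1* varied with *Dyrk1a* (0.869). *Clk3* followed none of the other *Clk* genes, with r between −0.20 and −0.03. Over the 6 overexpression libraries the same *Clk* pairs had r of 0.694, 0.288 and −0.415. The genes most like each kinase in the knockdown table were *Celf1* for *Srpk1* (0.995), *Ptprj* for *Srpk2* (0.974), *Gigyf1* for *Clk1* (0.977), *Ndor1* for *Clk2* (0.978), *Lemd2* for *Clk3* (0.935), *Hyi* for *Clk4* (0.947), *Rnf10* for *Dyrk1a* (0.963) and *Zfp207* for *Prpf4b* (0.940). In the overexpression table they were *Ntn4* (0.997), *Cln6* (0.986), *Ifi202b* (0.973), *Hibadh* (0.9996), *Trappc4* (0.999), *Dnajc24* (0.935), *Mcts2* (0.980) and *Mrpl50* (0.976), in the same order of kinases. No gene was nearest to the same kinase in both tables.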

How the data were processed

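Stranded libraries of polyadenylated RNA were sequenced from 18 samples. The authors aligned reads to mm10 with STAR 2.7.1a, computed CPM (read counts relative to library size) with edgeR 3.16.5 and kept genes with at least 5 CPM in 33% of samples. The deposited expression values are a signal, CPM scaled to a library size set for each library, and each table was scaled and filtered separately. The authors quantified splicing with vast-tools and deposited PSI in percent with a coverage score and reads per event. The deposited columns hold no other measurements that were used.

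Expression was tested with limma 3.58.1 (R 4.3.3, two-sided, trend) on log2(scaled CPM + 1), all groups of a table in 1 fit, each factor as the mean of its 2 shRNAs against shSCR, with Benjamini-Hochberg adjustment over all genes at 0.05. A fold change on this scale understates that of low genes, and ratios given are of mean scaled CPM. Events were used with a coverage score of VLOW or better in all libraries compared. Reads were tested with the robust variance moderation of limma on log2((inclusion + 1)/(exclusion + 1)), weighted by counting variance plus 0.05, over all covered events. The design had assumed plain CPM, and the same test was kept for the scaled values. Scripts were tested on simulated data. Tables were handled in Python 3.11.15 with pandas 2.3.3. The genes and lists were chosen with earlier results of these data known. Named events are those that met the ∆PSI criteria in any comparison and *Clk* introns with a mean PSI of at least 10 in a group. The events that limma called, *Clk* exon 4 of all 4 genes and the *Srpk2* exon just outside the criteria were chosen for naming after their values were seen. Of the lists of substrates, related kinases and phosphatases, carriers and chaperones, genes past the test are named, except for a result among the related kinases that is not reported here. Cell type markers are given as sums. Alternatives were another added constant, a filter on low values, libraries rescaled to an equal sum, only the groups compared, a replicate block, another PSI minimum, PSI in percent as the tested value, and leaving out each library. Intervals were not given, and reads behind an event are printed where they are few.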

Additional observations from a re-analysis of the deposited data

Results flagged for a closer look

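For 6 results among the kinases and the named events, both shSCR libraries lay on one side of NI in the knockdown dataset and both Empty libraries on the other side of NI in the overexpression dataset. The difference between datasets was not tested. The expression tables were normalised separately, which concerns the *Clk4* and *Dyrk1a* expression results and not the PSI values. *Clk4* expression was 0.57 higher in shSCR than in NI and −0.14 in Empty against NI on the log2 scale. With libraries rescaled to an equal sum, the latter turned to 0.04. *Dyrk1a* expression was at −0.13 in shSCR against NI and 0.11 in Empty against NI, and the former turned to 0.01 upon rescaling. Neither *Dyrk1a* difference passed the limma test. *Clk1* exon 7 had a ∆PSI of 14.4 between NI and shSCR and −16.9 between NI and Empty. The ∆PSI was 7.70 without NI replicate 1 of the knockdown dataset and −7.58 without Empty replicate 1, so both rest in part on 1 library. A 67-nt *Clk4* exon had a ∆PSI of −6.92 between NI and shSCR and 22.2 between NI and Empty. *Clk4* intron 4 differed by 3.04 and −3.65 in the same comparisons, and *Clk3* intron 8 by −2.70 and 7.28, none of which met the criteria. With 2 libraries in a group, no library could be tested for standing apart from its group.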

How the results depend on the processing

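With 2 libraries per group, calls near the threshold changed when libraries were left out, and the cause was not tested. Kinases called by expression ranged from 1 to 4 for shSCR (4), 0 to 1 for shCPSF3 (1) and 0 to 3 for Empty (2) as each library was left out. Fitting only the groups compared gave 0 for shCPSF3 and 1 for Empty, and rescaling to an equal sum 1 for Empty. Events that met the ∆PSI criteria ranged from 12 to 17 for shSCR, 8 to 11 for shCPSF3, 8 to 12 for shUL1, 5 to 12 for Empty and 1 to 10 for T7-TIA1, and a minimum of 15 left 5 for shUL1. Read-level calls ranged from 0 to 4 for shSCR and 0 to 3 for shUL1 (3 without shSCR replicate 2), and PSI in percent as the tested value gave 2 for shSCR, 3 for shUL1, 1 for Empty and 4 for T7-TIA1. A replicate block gave 2 kinases by expression for shUL1 (*Clk1* and *Clk3*), 2 read-level events for shCPSF3 and 2 for shUL1, and moved no other count of kinases or of their events by over 1.5 times. Over all genes it raised calls from 4197 to 5608, 2458 to 4698 and 987 to 2768 for shSCR, shCPSF3 and shUL1. The labels do not pair the libraries. Deviations from group means over genes correlated between same-numbered day 12 knockdown libraries (r 0.674 to 0.949), less in the overexpression dataset (0.171 to 0.308) and not with NI of the knockdown dataset (−0.127 to 0.0218). Of the single results, 598 kept direction and side of the threshold, 18 lost and 4 gained a call, and 20 changed sign, each with a log2 difference of 0.14 or less and no call. Rescaling turned *Srpk1* and *Dyrk1a* in shSCR to 0.11 and 0.0068, *Clk4* in shCPSF3 to −0.051 and *Clk4* in Empty to 0.0437. Leaving out libraries gave ranges of −0.17 to 0.13 for *Srpk1*, −0.052 to 0.23 for *Clk3* and −0.0099 to 0.0187 for *Prpf4b* in shSCR, −0.0489 to 0.13 for *Clk4* in shCPSF3, −0.0332 to 0.32 for *Srpk1* and −0.11 to 0.15 for *Prpf4b* in Empty, and −0.16 to 0.0308 for *Srpk2*, −0.0191 to 0.0074 for *Clk3*, −0.0023 to 0.24 for *Clk4*, −0.0736 to 0.11 for *Dyrk1a* and −0.0032 to 0.11 for *Prpf4b* in T7-TIA1. Count tests were not run, because the deposited values are scaled. Depth limits events of few reads.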
